A study of Mus musculus with 19 samples.

Results

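Tenomodulin (Tnmd) is 1 of the 24972 genes listed in a table of RNA sequencing signal from mouse plantaris tendon, and was taken by its row name. The table covers 19 libraries in 5 groups. The control group (n = 3) was Scx+, received no tamoxifen and underwent no growth stimulus. The other 16 libraries came from mice given tamoxifen and a growth stimulus, as Scx+ at day 7, Scx- at day 7, Scx+ at day 14 and Scx- at day 14 (n = 4 each). Scx is the gene of scleraxis, and the study's title names the mutation a targeted deletion. The labels used here give neither the alleles and the driver of the deletion nor strain, sex, age and the kind of stimulus. No unstimulated Scx- group and no unstimulated group with tamoxifen were among the samples. No label says that the replicates are different animals. The p-values then measure only the spread between these samples, which may be technical.

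Tenomodulin is a type II membrane glycoprotein of tendon and ligament cells, used as a marker of the mature tendon lineage. Its extracellular end carries a BRICHOS domain and a cysteine-rich domain that is related to chondromodulin, a protein of cartilage. Scleraxis is a basic helix-loop-helix transcription factor of the tendon lineage, a class that binds E-box motifs in DNA, and Tnmd is known as a gene whose expression in tendon cells depends on it. Tnmd is also expressed in adipose tissue.

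Tnmd lies on chromosome X, from 133850980 to 133865577 on the plus strand (GRCm38, GENCODE M21). The annotation gives it 1 transcript of 7 exons and 1353 bases, which codes for 317 amino acids, and no other annotated gene overlaps it. The sequence just upstream is shown because the loss of an E-box-binding factor is the condition the study set up. These 222 bases, chrX:133850758-133850979 on the plus strand (GRCm38.p6, from RefSeq), end at the base before the GENCODE start, and the RefSeq start is 28 bases further on. Capitals mark TTATAA, in which TATAA is read on both strands with overlap.
Tnmd upstream: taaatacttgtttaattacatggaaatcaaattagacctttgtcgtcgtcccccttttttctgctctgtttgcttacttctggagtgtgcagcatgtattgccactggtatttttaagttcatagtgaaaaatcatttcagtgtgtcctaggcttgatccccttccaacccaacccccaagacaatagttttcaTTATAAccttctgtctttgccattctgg
The motif CANNTG, an E-box on either strand, had 0 matches in this window, and 62.4% of 32851 RefSeq windows of the same length hold at least 1. TATAA on either strand was found in 19.5% of these windows. In Tnmd, TTATAA begins 28 bases before the GENCODE start. These matches describe the letters of a short window only, and binding was not measured.

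Values below are the deposited signal rescaled to a common median ratio between libraries, called the rescaled signal. Scx, the targeted gene, stood at 588.9, 439.6 and 316.6 in control replicates 1 to 3. After the stimulus the Scx+ replicates 1 to 4 held 7993, 5573, 3272 and 2755 of it at day 7, then 5060, 3723, 5012 and 2082 at day 14. The Scx- replicates held 17.1, 8.9, 8.9 and 5.7 at day 7, then 5.8, 2.5, 4.9 and 1.7 at day 14. Scx thus followed the labels in all 19 libraries.

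In the controls Tnmd stood at 3032.5 in replicate 1, 1266.3 in replicate 2 and 880.8 in replicate 3. At day 7, replicates 1 to 4 held 27572, 18909, 10001 and 10137 in Scx+ and 2184, 1032, 2419 and 1434 in Scx-. All 4 Scx- libraries lay below all 4 Scx+ libraries, within the range of the controls. At day 14 the Scx+ libraries held 62445, 38826, 36113 and 15646, and the Scx- libraries 1148, 1232, 6283 and 6626. Here too the genotypes did not overlap. The Scx- libraries fell into a low pair, replicates 1 and 2, inside the control range, and a high pair, replicates 3 and 4, above every control library and below every Scx+ library.

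By group, the mean rescaled signal was 1727 ± 1147 in the controls (SD, n = 3), 1767 ± 646 in Scx- at day 7, 3822 ± 3043 in Scx- at day 14, 16655 ± 8387 in Scx+ at day 7 and 38258 ± 19159 in Scx+ at day 14 (SD, n = 4 each). Of the neighbours in this order, Scx- at day 14 and Scx+ at day 7 had libraries that did not overlap, and these groups were not tested against each other. Controls and Scx- at day 7 overlapped, as did Scx- at the 2 days and Scx+ at the 2 days, and the tests of these pairs are given below.

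**Figure D1:**
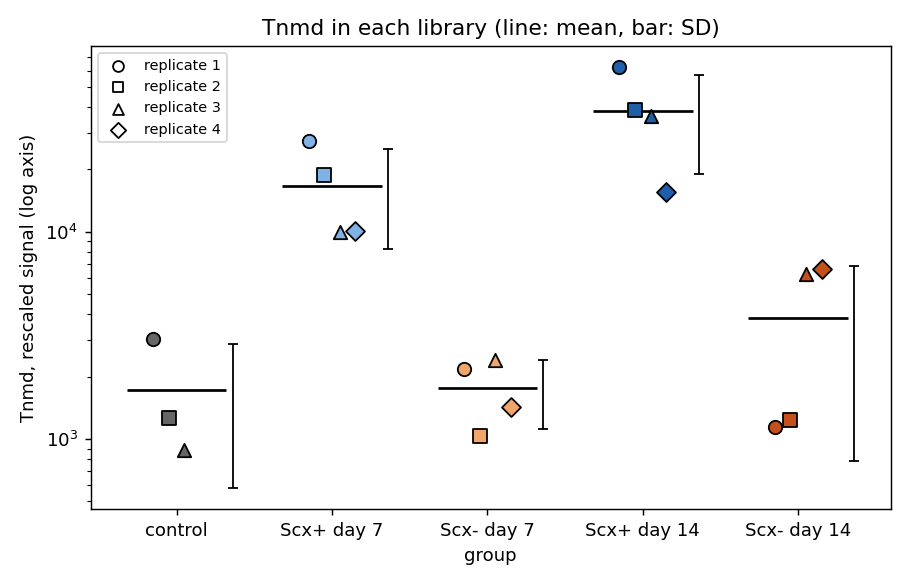
Rescaled signal of Tnmd on a log axis for each of the 19 libraries by group; points are libraries, lines are group means and bars are SD. The 8 Scx+ libraries after the stimulus sit between 10001 and 62445, above all control and Scx- libraries, and the Scx- day 14 libraries split into a pair at 1148 and 1232 and a pair at 6283 and 6626.

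Divided by its exon length, Tnmd ranked among the most abundant protein-coding genes of stimulated Scx+ tendon. Of 20583 protein-coding genes matched by symbol, Tnmd ranked 79, 105, 217 and 206 by rescaled signal per kilobase in Scx+ replicates 1 to 4 at day 7. At day 14 it ranked 15, 48, 57 and 147. In Scx- libraries the rank was 1051, 2593, 1064 and 1819 at day 7, then 2429, 2426, 369 and 367 at day 14, and in the controls it was 980, 2409 and 3322. Tnmd was therefore still listed well above 0 in every Scx- library. Whether the deposited values already allow for transcript length is not stated.

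The day 7 groups addressed how far Tnmd differed between genotypes early after the stimulus. Tnmd fell by 3.18 ± 0.62 on the log2 scale in Scx- (SE, n = 4 each; limma adjusted p = 0.0197), and the group means differed 9.42-fold. Of all 16619 genes tested, 0.77% passed, 0.433% as higher and 0.337% as lower in Scx-, and Tnmd ranked 44 by size of fall. The exact two-sided permutation test of the log2 values gave p = 0.0286, the smallest that 4 against 4 allows, and 0.0571 after adjustment over the 8 comparisons of Tnmd run in this way. The limma call ended without Scx+ replicate 1 or 2 (adjusted p = 0.0925 and 0.0883), or without Scx- replicate 2 or 4 (0.0929 and 0.0653), at log2 fold changes from -3.10 to -2.89.

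At day 14 the same comparison asked whether the difference was present later. Tnmd fell by 3.63 ± 0.62 on the log2 scale in Scx- (SE, n = 4 each; limma adjusted p = 0.0130; exact permutation p = 0.0286, adjusted 0.0571), with means 10.01-fold apart. In this comparison 0.517% of all genes passed, 0.108% as higher and 0.409% as lower, and Tnmd ranked 19 by size of fall. The call ended without Scx+ replicate 1 (adjusted p = 0.0637), without Scx- replicate 2 (0.0570) and when the fit held just the day 14 groups (0.190, at -3.62). It also ended without the low Scx- pair, replicates 1 and 2, at a log2 fold change of -2.41 ± 0.58 (adjusted p = 0.201). The remaining Scx- libraries were still below every Scx+ library. A smaller difference follows from leaving out the lowest Tnmd values of the group.

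The change of the genotype effect from day 7 to day 14 was estimated at -0.45 ± 0.87 on the log2 scale for Tnmd (SE, n = 4 in each of 4 groups; limma adjusted p = 1.0). Of all genes, 0.0181% passed that test, 0.00602% as positive and 0.012% as negative. Without the low Scx- pair at day 14 the estimate was 0.77 ± 0.75. That pair holds the lowest Tnmd values of its group, so a shift in this direction follows from leaving it out. With errors of this size, no change of the Tnmd difference between the days was detectable.

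Against the controls, Tnmd rose in stimulated Scx+ tendon and did not pass in Scx- tendon. Each of these comparisons used the same 3 control libraries, and the stimulus cannot be told apart from tamoxifen in them. Tnmd rose by 3.33 ± 0.67 on the log2 scale in Scx+ at day 7 (SE, n = 4 and 3; limma adjusted p = 0.000447) and by 4.51 ± 0.67 at day 14 (adjusted p = 4.52e-05). The means of the rescaled signal were 9.65 and 22.2 times the control mean, and each exact permutation test gave p = 0.0286, the smallest possible for these groups (adjusted 0.0571). Many genes passed here. Of all genes, 61.3% passed at day 7, 33.8% as higher and 27.5% as lower, and 55.9% at day 14, 30.9% as higher and 25% as lower. A rise alone therefore did not set Tnmd apart. In Scx- the difference from the controls was 0.16 ± 0.67 at day 7 (adjusted p = 0.853), where 58.2% of all genes passed, 32.3% as higher and 25.9% as lower. It was 0.88 ± 0.67 at day 14 (adjusted p = 0.296), where 43.8% passed, 25.5% as higher and 18.3% as lower. Without Scx- replicates 1 and 2, the pair with the most muscle signal, the day 14 difference was 2.09 ± 0.61 (adjusted p = 0.0105), with 2 Scx- libraries left. The pair left out also holds the lowest Tnmd values of its group, so a larger difference follows from leaving it out and is no support for a rise.

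The controls also differed from all stimulated groups in tissue makeup. A list of 33 skeletal muscle fibre genes, which encode myosins, troponins, enzymes and calcium-handling proteins of muscle, took 28.4% to 34.0% of the signal in the controls and 0.0639% to 22.3% in stimulated libraries. Its members did not all move 1 way against the controls. In Scx+ at day 7, 25 passed as lower and 3 as higher, beside 27.5% and 33.8% of all genes. In Scx- at day 14, 2 passed as lower and 4 as higher, beside 18.3% and 25.5%. A list of 18 tendon matrix genes took 0.542% to 1.62% in the controls and 2.33% to 15.8% in stimulated libraries. In bulk tissue, fewer tendon cells and less Tnmd RNA per tendon cell cannot be told apart. As ppm of the signal outside the muscle genes, Tnmd stood at 67.5, 26.1 and 18.3 in the controls. The Scx+ libraries held 626, 437, 248 and 252 ppm at day 7, then 1442, 947, 840 and 370 at day 14. With the mean of the muscle list as a covariate, the Tnmd difference of Scx+ from the controls was 1.88 ± 0.69 at day 7 (limma adjusted p = 0.0411). At day 14 it was 3.77 ± 0.57 (adjusted p = 4.84e-05). The Scx- day 7 difference then changed sign, to -0.67 ± 0.58 (adjusted p = 0.354). No stimulated library had a muscle share as high as any control. These fits therefore cannot separate muscle share from the group difference to the controls.

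Between the days, Tnmd was 2.30-fold higher on average at day 14 in Scx+ and 2.16-fold higher in Scx-, and neither difference passed. The log2 difference was 1.17 ± 0.62 in Scx+ (SE, n = 4 each; limma adjusted p = 0.534; exact permutation p = 0.0857) and 0.73 ± 0.62 in Scx- (adjusted p = 0.518; exact permutation p = 0.371). Of all genes, 0.0301% passed between the days in Scx+, 0.012% as higher and 0.0181% as lower at day 14. In Scx- 5.25% passed, 1.4% as higher and 3.86% as lower. Without Scx- replicates 1 and 2 at day 14 the Scx- difference was 1.94 ± 0.58 (adjusted p = 0.111). A larger difference follows from leaving out this pair, which holds the lowest Tnmd values of its group.

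Within the controls and within Scx+ at day 7 the libraries with more Scx also held more Tnmd, apart from replicates 3 and 4 at day 7, whose Tnmd values differed little. At day 14 the order did not hold throughout, since Scx+ replicate 3 had more Scx than replicate 2 and less Tnmd. In Scx-, libraries with nearly the same trace of Scx differed in Tnmd several-fold, and replicate 4 at day 14, with the lowest Scx of all, had the highest Tnmd of the genotype.

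Tnmd per unit of Scx was higher at day 14 than at day 7 in Scx+. The ratio of the rescaled signals was 3.45, 3.39, 3.06 and 3.68 at day 7, then 12.3, 10.4, 7.21 and 7.51 at day 14, without overlap, and 5.15, 2.88 and 2.78 in the controls. This ratio was chosen after its values were seen and was not tested. The control and day 7 ratios overlapped although Tnmd itself was 9.65-fold apart. Between the days in Scx+, Scx differed by -0.26 ± 0.39 on the log2 scale (limma adjusted p = 0.873), beside 1.17 ± 0.62 for Tnmd.

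**Figure D2:**
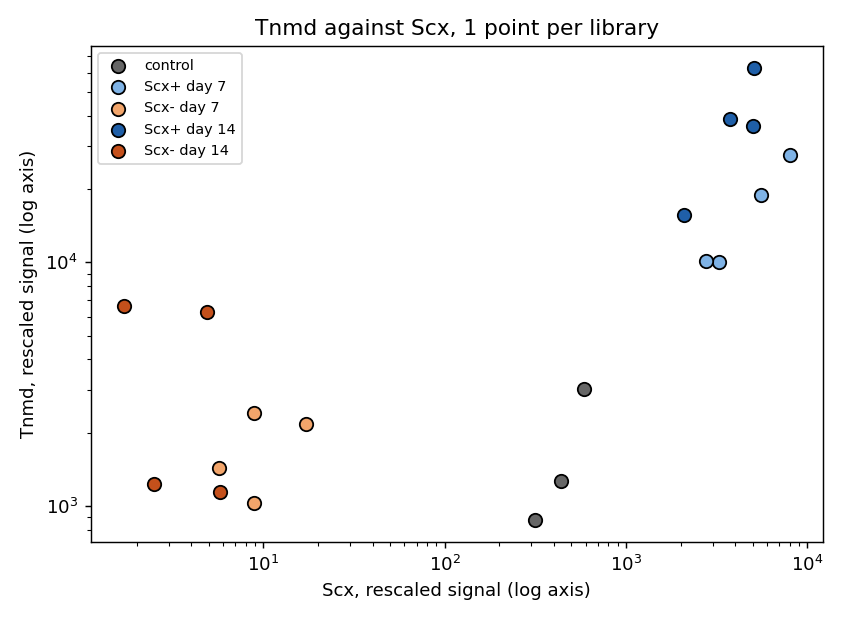
Rescaled signal of Tnmd against that of Scx, both on log axes, 1 point per library, coloured by group. Scx+ libraries at day 14 lie above those at day 7 for a like level of Scx, and Scx- libraries spread from 1032 to 6626 in Tnmd with Scx at or under 17.1.

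Over the 8 stimulated Scx+ libraries, log2 Tnmd and log2 Scx had a Pearson r of 0.544 (exact permutation p = 0.163, adjusted 0.488 over 3 relations) and a Spearman rho of 0.524 (exact permutation p = 0.197, adjusted 0.590). Without the 2 libraries farthest from the median of Scx, r was 0.659 (n = 6, exact permutation p = 0.161). As deviations from the mean of each day, r was 0.939 (exact permutation within days, p = 0.0104, unadjusted). Groups of 4 are too small for a correlation within a day. Over all 19 libraries, as deviations from the 5 group means, Scx had an r of 0.452 with Tnmd and ranked 2698 of 11206 genes by that measure. The Scx- libraries enter it with Scx between 1.7 and 17.1, low values whose precision is unknown. This rank therefore does not describe the Scx+ libraries alone.

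Muscle share was then set beside Tnmd within each genotype. In Scx+ it was 0.296%, 0.0639%, 2.52% and 2.60% in replicates 1 to 4 at day 7 and 0.340%, 6.003%, 3.07% and 10.2% at day 14. At each day the library with the most muscle signal was among the lowest in Tnmd. In Scx- it was 2.94%, 4.41%, 7.42% and 0.475% at day 7, then 19.1%, 22.3%, 5.27% and 5.04% at day 14. The low Tnmd pair of Scx- at day 14 is thus the pair with the most muscle signal. At day 7, however, the Scx- library with the least muscle signal, replicate 4, held less Tnmd than replicates 1 and 3.

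Over 8 libraries per genotype, log2 Tnmd and log2 muscle share had an r of -0.216 in Scx+ (exact permutation p = 0.608, adjusted 0.844; rho -0.0238, exact p = 0.977) and of -0.0847 in Scx- (exact permutation p = 0.844, adjusted 0.844; rho -0.0952, exact p = 0.840). Without the 2 libraries farthest from the median share, r was -0.450 and -0.325 (n = 6 each). As deviations from the day means, r was -0.803 in Scx+ (exact permutation within days, p = 0.0556) and -0.421 in Scx- (exact permutation within days, p = 0.207). None of these relations passed.

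The gap between genotypes was also present with the muscle genes taken out of the total. As ppm of the signal outside muscle genes, the Scx- libraries held 55.5, 25.9, 58.8 and 35.2 of Tnmd at day 7 and 27.9, 27.9, 143 and 164 at day 14. Each was below the lowest Scx+ library of its day, at 248 and 370 ppm. The low Scx- pair at day 14 stood apart from the other pair on this scale too. With library totals outside muscle genes as the scale, the genotype difference of Tnmd was -3.12 ± 0.62 at day 7 (limma adjusted p = 0.0214) and -3.62 ± 0.62 at day 14 (adjusted p = 0.0125). With the muscle list as a covariate it was -2.55 ± 0.52 (adjusted p = 0.0410) and -3.04 ± 0.51 (adjusted p = 0.0148).

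**Figure D3:**
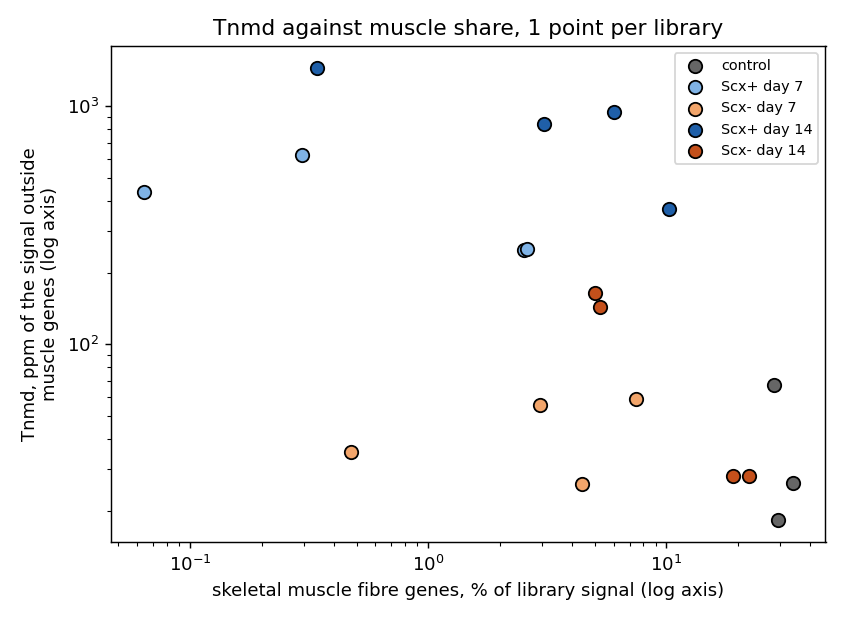
Tnmd as ppm of the signal outside muscle genes against the share of 33 skeletal muscle fibre genes in the library signal, both on log axes, 1 point per library. At muscle shares between 2% and 8%, where both genotypes have libraries, Scx- libraries lie at 25.9 to 164 ppm and Scx+ libraries at 248 to 947 ppm.

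Tendon matrix genes gave a reference from within each library. The list holds collagens, the small proteoglycans Fmod, Dcn, Lum and Kera, and the secreted proteins Thbs4, Comp, Chad, Tnc, Cilp, Angptl7 and Fibin. The log2 value of Tnmd less the mean log2 value of these 18 genes was -1.32, -2.06, -2.34 and -2.21 in Scx+ replicates 1 to 4 at day 7 and -4.27, -4.34, -3.48 and -4.07 in Scx-. At day 14 it was -0.61, -0.80, -0.88 and -1.82 in Scx+ and -4.22, -3.81, -3.56 and -2.57 in Scx-. Genotypes did not overlap at either day.

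The difference between genotypes on this measure was -2.06 log2 units at day 7 and -2.51 at day 14 (n = 4 each; exact permutation p = 0.0286 for each, and 0.0286 after adjustment over the pair). Tnmd was therefore lower in Scx- by more than the average of the tendon matrix list in the same libraries. Against Fmod, Thbs4, Comp and Chad alone, the difference was -0.73 at day 7 (exact permutation p = 0.143) and -1.60 at day 14 (exact p = 0.0571), and did not pass. With all 18 genes as reference but without the muscle-rich Scx- pair, the day 14 difference was -2.04 (exact permutation p = 0.0667, the smallest that 2 against 4 allows). The controls stood at -2.88, -3.08 and -3.13, within the range of Scx- at day 14. Every Scx- library at day 7 was below them and every stimulated Scx+ library above them, a pattern that the rescaled Tnmd signal alone did not show for Scx- at day 7.

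**Figure D4:**
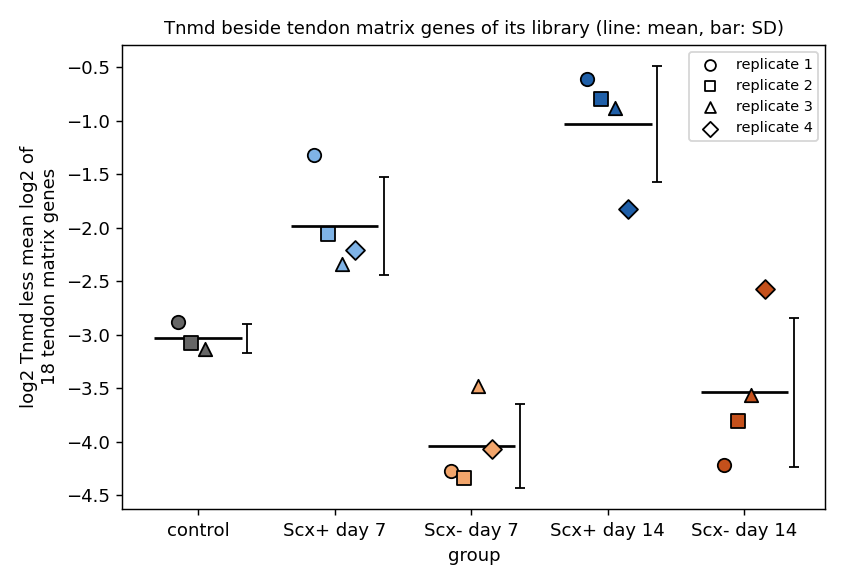
Log2 value of Tnmd less the mean log2 value of 18 tendon matrix genes in the same library, by group; points are libraries, lines are means and bars are SD. Stimulated Scx+ libraries lie from -2.34 to -0.61, controls from -3.13 to -2.88 and Scx- libraries from -4.34 to -2.57.

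Of the matrix genes themselves, 2 of 18 passed at day 7, both lower, beside 0.337% of all genes lower (median -0.79, against 0.02 for all genes tested). They were Fmod, a proteoglycan that binds collagen fibrils, at -2.70 ± 0.55 (limma adjusted p = 0.0244), and Chad, a leucine-rich matrix protein, at -3.98 ± 0.86 (adjusted p = 0.0435). At day 14, 2 of 18 passed, both lower, beside 0.409% of all genes (median -1.09, 16 of 18 negative): Thbs4, a thrombospondin of tendon matrix, at -1.94 ± 0.40 (adjusted p = 0.0378), and Fibin, a secreted protein, at -1.62 ± 0.26 (adjusted p = 0.00779). Tnmd had a larger fold change than all of the list at day 14 and than all but Chad at day 7. Differences between the fold changes of single genes were not tested. The list was written with earlier results of these data known, so its counts are no independent support. None of the 18 passed without the muscle-rich Scx- pair at day 14, nor with the muscle covariate at day 7, and with the covariate at day 14 Fibin alone passed. The day 14 median was -0.20 without that pair, with 12 of 18 negative, and -0.68 with the covariate.

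Among 12 transcription factors and cofactors of the tendon lineage, 2 passed at each day, both lower, beside 0.337% of all genes lower at day 7 and 0.409% at day 14. One is Scx, the targeted gene, so its call follows from the design. The other is Eya2, a transcriptional cofactor, at -1.75 ± 0.37 at day 7 (limma adjusted p = 0.0305) and -1.90 ± 0.37 at day 14 (adjusted p = 0.0255). Mkx, a homeobox factor of tendon, differed by -0.79 ± 0.41 and -1.16 ± 0.41 (adjusted p = 0.766 and 0.245). The call of Eya2 ended with the muscle covariate at day 7 and without the muscle-rich pair at day 14. Against the controls, 9 of the 12 were higher in Scx+ at day 7 and 3 lower (median 2.02), beside 33.8% and 27.5% of all genes.

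**Figure D5:**
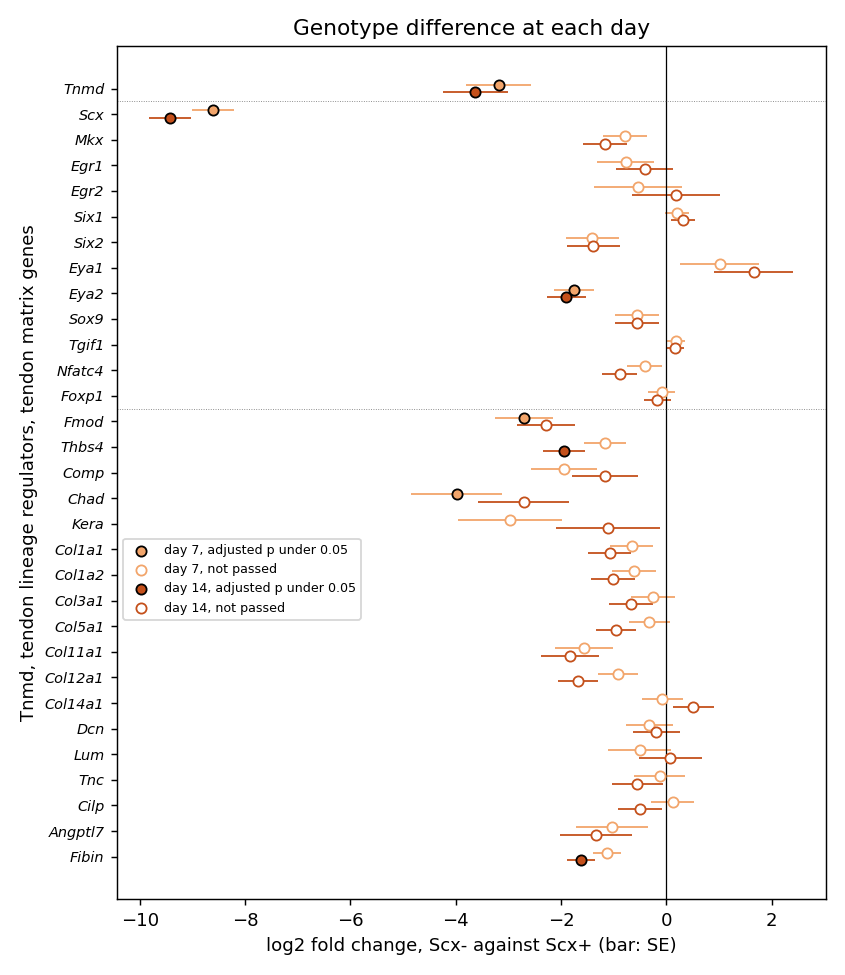
Log2 fold change between Scx- and Scx+ at day 7 and day 14 for Tnmd, 12 tendon lineage regulators and 18 tendon matrix genes, with SE bars; filled points passed an adjusted p of 0.05 over all genes (limma). Scx has the lowest values, Tnmd lies at -3.18 and -3.63, and the other filled points are Eya2 at both days, Fmod and Chad at day 7 and Thbs4 and Fibin at day 14.

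The genes of other BRICHOS proteins did not pass between genotypes at either day, 0 of 6 tested of 9 listed (median -0.24 at day 7 and 0.30 at day 14). Of all genes, 0.77% passed at day 7 and 0.517% at day 14. Unadjusted, 1207 genes of the whole table had p under 0.05 at day 7 and 2429 at day 14. Cnmd, which encodes chondromodulin, was low and uneven. It stood at 45.7, 194.2, 90.7 and 26.9 in Scx+ and 64.6, 0, 2.2 and 4.7 in Scx- at day 7. At day 14 it stood at 0.7, 0.6, 2.0 and 0.9 in Scx+ and 176.6, 3.8, 0 and 19.6 in Scx-. The genotypes overlapped at day 7, and at day 14 they overlapped through the Scx- library listed at 0. Itm2b and Itm2a, which encode membrane proteins with this domain and had the highest signal of the list, differed by 0.29 ± 0.22 and -0.09 ± 0.42 at day 7 (limma adjusted p = 0.851 and 0.988).

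Markers of other cell types were read beside Tnmd. Of 8 tested cartilage genes, 1 passed as lower at each day, beside 0.337% of all genes at day 7 and 0.409% at day 14. It was Ucma, which encodes a small secreted protein of cartilage, at -5.41 ± 0.97 at day 7 (limma adjusted p = 0.0106). At day 14 Ucma stood at -4.93 ± 0.97 (adjusted p = 0.0254), where the call ended with the muscle covariate. Of the 8 genes, 7 were negative at day 7 and 5 at day 14, with 3 positive (median -1.80 and -0.55). None of 33 muscle genes passed, and all 33 had positive values at each day (median 2.12 and 1.92). In either direction, 0.77% of all genes passed at day 7 and 0.517% at day 14. Counts of none for this list and those below are near these shares. The fast myosin gene Myh4 differed by 1.67 ± 1.20 and 2.66 ± 1.20 and Myh1 by 2.69 ± 1.51 and 2.04 ± 1.51. None of 11 adipocyte genes passed (median 0.34 and 1.41), with Cfd, which encodes adipsin, at 1.32 ± 1.02 and 1.77 ± 1.02 and Fabp4, a fatty acid carrier, at 0.50 ± 0.45 and 0.31 ± 0.45. Adipocyte genes took 0.0137% to 0.126% of the signal in stimulated libraries and 0.257% to 0.335% in the controls. None of 14 endothelial genes passed, with 14 of 14 negative at day 7 (Pecam1, -0.52 ± 0.35) and 14 positive at day 14 (0.34 ± 0.35). Of 14 macrophage genes, 1 was higher at day 7, beside 0.433% of all genes, and none passed at day 14. It was the Fc receptor gene Fcgr1, at 1.36 ± 0.30 (limma adjusted p = 0.0388). All 14 were positive at day 7 (median 0.52) and all 14 negative at day 14 (median -0.24). None of 10 genes of tendon sheath and progenitors passed (median 0.44 and -0.17), with 8 positive at day 7 and 3 positive at day 14. Prg4, which encodes lubricin, was negative at both days, at -0.26 ± 0.53 and -0.61 ± 0.53, unlike most of its list at day 7. The part of these cell types in the Tnmd difference was not tested beyond the muscle scalings above.

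The genes most like Tnmd over the 19 libraries were ranked by Pearson correlation of log2 values, as a description with no test, among 11206 genes. The closest were Fibin (r = 0.959), Mfge8, a secreted glycoprotein (0.923), Adam23, a membrane protein of the ADAM family (0.911), Pkd2, a cation channel (0.905), and Cybrd1, a ferric reductase (0.903). Abi3bp, Cercam, Chrdl1, Zfp185 and Fam167a followed at 0.900 to 0.890. All of these points share the same libraries, groups and scaling. Scx ranked 271 at 0.736. Group differences enter this ranking, so the next values are no independent support. At day 14, Fibin, Adam23, Pkd2, Cybrd1, Cercam and Zfp185 were lower in Scx- with an adjusted p under 0.05 (limma), beside 0.409% of all genes. Their values ran from -3.68 for Cybrd1 to -1.53 for Pkd2. Pkd2 and Cercam lay close to the threshold (limma adjusted p = 0.0486 and 0.0491). Cybrd1 (-3.10) and Zfp185 (-2.47) were also lower at day 7, beside 0.337% of all genes.

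As deviations from the group means, which leave out the differences between groups, the closest genes were others, with Abi3bp in both sets. Abi3bp, an extracellular matrix protein, led at 0.955, ahead of Cpxm1, a carboxypeptidase-like secreted protein (0.954), Sparc, a collagen-binding matricellular protein (0.947), Matn2, a matrilin (0.944), and Ikbip (0.943). Mkx ranked 8 at 0.936. None of the 10 closest genes on this measure passed between genotypes at day 7 or day 14. Of all genes, 0.77% and 0.517% passed, so a count of none among 10 is near that share. At day 14 Abi3bp differed by -1.44 ± 0.56 (adjusted p = 0.276), Sparc by -0.60 ± 0.35 (adjusted p = 0.424) and Matn2 by -0.24 ± 0.38 (adjusted p = 0.803).

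In the authors' deposited table, Tnmd was higher than in the controls by 3.28 ± 0.48 log2 units in Scx+ at day 7 (SE; adjusted p = 2.95e-11) and by 4.48 ± 0.49 at day 14 (adjusted p = 6.56e-18). The same authors' deposited table has Scx- at 0.08 ± 0.47 (adjusted p = 0.897) and 1.12 ± 0.68 (adjusted p = 0.219). For day 14 against day 7, the authors' deposited table has 1.20 ± 0.40 in Scx+ (adjusted p = 0.0595) and 1.09 ± 0.58 in Scx- (adjusted p = 0.244). Between genotypes, the authors' deposited table has Scx- at -3.23 ± 0.38 at day 7 (adjusted p = 1.14e-14) and -3.34 ± 0.60 at day 14 (adjusted p = 1.72e-05).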

How the data were processed

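Total RNA of plantaris tendon had been sequenced. Per the submitters' processing notes STAR, FastQC, DESeq2 and mm10 were used, with no versions or roles. The authors deposited a scaled signal per gene and library that is not whole, with library sums of 36.6 M to 79.8 M units. How it was scaled and the reads behind it are not given in the sources used here, so depth is unknown and no counting interval is given. The authors also deposited log2 fold changes with SE and adjusted p-values for 15951 genes.

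Here the signal was rescaled by medians of ratios (factors 0.844 to 1.1). Genes reaching 10 in 3 or more libraries, 16619 in all, entered limma 3.58.1 (R 4.3.3, mean-variance trend, robust moderation) as log2(value + 2). One model held all 5 groups, with Benjamini-Hochberg adjustment over all tested genes and a threshold of 0.05. The script was tested on simulated data. Fold changes are on that log2 scale, which understates changes of low genes. Exact permutation tests and correlations used Python 3.11.15. List shares are percent of the deposited signal.

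Named genes were Tnmd, Scx, members of 9 gene lists (up to 4 with the highest signal among those that passed, otherwise 2), and the 10 genes most correlated with Tnmd at a mean of at least 5 ppm. Cnmd and the X-linked neighbours were named after their values were seen. The gene and the lists were chosen with earlier results of these data known. Alternatives covered scaling, pseudocount, filter, moderation, block, muscle covariate, sample weights, groups in the fit and left-out libraries.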

Additional observations from a re-analysis of the deposited data

Results flagged for a closer look

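The adipocyte list took 0.102% of the signal in Scx+ day 14 replicate 4, against 0.0233% to 0.0339% in the other libraries of that group, so this library lay far from the others. It is also the Scx+ day 14 library with the lowest Tnmd (15646) and the most muscle signal (10.2%). Chance alone picks out about 1 in 20 groups in this way. Without this library Tnmd was still lower in Scx- at day 14 (limma adjusted p = 0.0104). The cartilage list showed a gap of like width in Scx+ at day 7, with 0.122% in replicate 2 against 0.0275% to 0.0401% in the others. Fmod did so in Scx- at day 7, with 30110 in replicate 1 against 6782 to 9264 in the others.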

How the results depend on the processing

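The Tnmd value stayed lower in Scx- at both days under every alternative run, from -3.38 to -2.55 over 21 at day 7 and from -4.04 to -2.41 over 22 at day 14. At 17 of 21 and 18 of 22 it passed. Leaving out 1 library gave -3.38 to -2.89 at day 7 and -4.04 to -3.20 at day 14, with the lost calls named above. A fit of the day 14 groups alone gave -3.62 (adjusted p = 0.190). An alternative chosen from an earlier description left out Scx- day 14 replicates 1 and 2. The day 14 difference was then -2.41, the difference between days reversed to 0.77, and Scx- at day 14 over the control passed at 2.09. The pair left out holds the lowest Tnmd values of its group, so each of these shifts follows from leaving it out. The rises in Scx+ passed under all 20 alternatives each (1.88 to 4.01 and 3.77 to 5.12). For Scx- at day 7 against the control the sign reversed, to -0.67 with the muscle covariate and, when 1 library was left out, over a range from -0.25 to 0.65 (-0.25 without control replicate 3, -0.02 without Scx- replicate 3). For Tnmd less the tendon matrix mean, Fmod, Thbs4, Comp and Chad as the reference gave -0.73 and -1.60, and leaving out the muscle-rich pair, added after seeing the data, -2.04. Leaving out 1 library gave -2.25 to -1.84 and -2.84 to -2.29. With the replicate block, as paired differences, the values were -2.06 and -2.51, where 4 pairs cannot go below an exact p of 0.125. The labels do not say whether replicate numbers pair the samples. Same-numbered Scx- and Scx+ libraries had correlations of their deviations from the group means of -0.429 to 0.251. No Scx- library correlated best with the Scx+ library of its own number and day. These deviations also hold other differences between libraries, such as muscle share, so they cannot decide whether samples were paired. In limma the replicate block left the Tnmd calls in place (adjusted p = 0.0410 and 0.0337), with 120 and 58 genes called. The relation of Tnmd with Scx went to 0.939 as deviations from the day means. The cause of these changes was not tested.

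The number of genes called was 128 at day 7 and 86 at day 14 between genotypes, and ranged from 41 to 478 and from 8 to 993 over the alternatives. It ranged from 6182 to 11420 (10191 as reported) for Scx+ day 7 over control, from 4268 to 8568 (7286) for Scx- day 14 over control, from 0 to 619 (5) and 282 to 2604 (873) between the days in Scx+ and Scx-, and from 0 to 37 (3) for the difference of genotype effects. On the deposited scale, with the median of all genes at -0.22, 37 genes were higher and 956 lower between genotypes at day 14, against 18 and 68. Over the control, library totals gave 8971 higher and 2449 lower in Scx+ at day 7 (against 5616 and 4575), 8424 and 2113 at day 14 (5142 and 4151), 8959 and 1974 in Scx- at day 7 (5372 and 4303), and 7209 and 1359 at day 14 (4239 and 3047). They moved the median of all genes to between 0.58 and 0.83, and Tnmd at 4.01 and 5.12 in Scx+ lay above it. In Scx-, totals without muscle genes gave 6470 higher and 3306 lower at day 7. At day 14 they gave 5076 and 2282, while the deposited scale gave 2783 and 5128. Between the days in Scx-, the deposited scale gave 112 higher and 2492 lower, library totals 114 and 1235, and totals without muscle genes 145 and 816, against 232 and 641. Depth is unknown, so the precision of low values such as Scx in Scx- tendon and Cnmd cannot be stated.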

Other observations

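The neighbours of Tnmd on chromosome X were read for comparison. Tspan6 encodes a tetraspanin, lies on the minus strand, and its nearer end is 25.5 kb beyond the end of Tnmd. In Scx+ it rose over the controls by 4.34 ± 0.41 log2 units at day 7 and 4.05 ± 0.41 at day 14 (limma adjusted p = 3.09e-07 and 1.02e-06). In Scx- it rose by 3.68 ± 0.41 and 2.83 ± 0.41 (adjusted p = 1.59e-06 and 5.96e-05). Between genotypes Tspan6 differed by -0.66 ± 0.38 at day 7 (adjusted p = 0.781) and -1.23 ± 0.38 at day 14 (adjusted p = 0.191).

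Srpx2, which encodes a secreted sushi-repeat protein and lies 42.8 kb away, differed by -0.23 ± 0.23 at day 7 (adjusted p = 0.892) and fell by 1.06 ± 0.23 at day 14 in Scx- (adjusted p = 0.0443). Over the controls Srpx2 rose by 3.74 ± 0.25 in Scx+ and 3.50 ± 0.25 in Scx- at day 7, and by 3.86 ± 0.25 and 2.80 ± 0.25 at day 14. Sytl4, 70.8 kb away, differed between genotypes by -0.34 ± 0.91 and -0.73 ± 0.91 (adjusted p = 0.980 and 0.729). Cstf2, an RNA processing gene 193.6 kb away, differed by 0.06 ± 0.15 and 0.02 ± 0.15. Pcdh19, 162.0 kb before Tnmd, differed by 0.37 ± 0.25 and -0.34 ± 0.25.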
